A study of Homo sapiens with 2 samples.

Results

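Fibroblast growth factor (FGF) signalling genes were compared between WT and MEIS2-/- cells at day 4 of hematopoietic differentiation. The group comprised 34 genes chosen by family membership and not by their values: 18 secreted FGF ligands, 4 FGF homologous factors, 5 FGF receptors and 7 feedback genes. Of these, 32 had values among the 17397 genes listed, and the expression of FGF6 and FGF20 was not analysed here. RNA-Seq was available as 2 libraries, 1 from WT cells and 1 from MEIS2-/- cells. Both were made from H1, an established human embryonic stem cell line. The WT library came from unedited H1 cells, and the MEIS2-/- library came from H1 cells in which MEIS2 was disrupted by Cas9 with a guide to exon 3, delivered by lentivirus, followed by puromycin selection and expansion from single cells. Which homozygous clone was sequenced is not given in the sources used here. Both cultures were treated alike, with activin A (50 ng/ml) and BMP4 (40 ng/ml) over the first 2 days and with VEGF (40 ng/ml) and bFGF (50 ng/ml) over the next 2 days. bFGF is the protein product of FGF2, so cells of both genotypes were supplied with FGF ligand from outside up to the time of harvest.

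FGF ligands signal through receptor tyrosine kinases on the cell surface, with heparan sulfate chains as a co-factor, and the receptors activate the RAS-ERK cascade through adaptor proteins. ERK in turn induces genes such as the Sproutys, SPREDs and dual specificity phosphatases (DUSP), whose products restrain the cascade, so that their transcripts are commonly read as a trace of recent signalling. In the embryo, FGF signals act in the primitive streak, in the migration and patterning of mesoderm and, together with VEGF, in the development of vessels and blood.

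Values were deposited as FPKM, fragments scaled to transcript length and to the total of mapped fragments, which is a level per transcript length and can be compared between genes. Log2 fold changes are MEIS2-/- over WT after 0.1 FPKM was added to each value, and a difference of at least 2-fold on this scale was counted. The addition understates differences of genes with low values. Counts were restricted to the 13075 genes that reached 1 FPKM in either library. With 1 library per genotype there was no replicate check, no test was possible and no error can be attached to any value. The libraries summed to 447542 FPKM in WT and 440651 FPKM in MEIS2-/-, and their depth is unknown. The median log2 fold change of the 13075 genes was 0.12, and each difference can be read relative to this shift. MEIS2 itself was at 10.85 FPKM in WT and 3.44 FPKM in MEIS2-/-. Since whole cultures were sequenced, fewer cells of a type and less RNA per cell cannot be told apart.

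The 2 libraries differed in markers of several cell types, and the part of these differences in the values given here was not tested. Among all compared genes, 40.6% were lower and 59.3% were higher in MEIS2-/- cells. Of 10 hemogenic endothelium markers, 9 were lower in MEIS2-/- cells, and their summed level was 469.99 FPKM in WT and 368.06 FPKM in MEIS2-/-, with SOX17, the 1 higher gene, at 141.01 and 264.03 FPKM. All 7 lateral plate mesoderm markers were lower, with sums of 1291.96 and 685.83 FPKM. All 8 visceral endoderm markers were higher, with sums of 460.20 and 1025.03 FPKM, of which APOA1 made up most, at 401.38 and 879.13 FPKM. Of these 8, AFP, TTR and APOB passed the filter only in MEIS2-/- cells, so they had to be higher. Of 7 pluripotency markers above the filter, 5 were higher, with sums of 638.66 and 1897.77 FPKM. POU5F1 accounted for most of this gap, at 285.65 and 1454.14 FPKM, while DNMT3B and CRIPTO were lower. The defining marker SOX2 stayed at 0.09 and 0.15 FPKM. Among 6 primitive streak and early mesoderm markers above the filter, 2 were higher and 4 were lower (sums 25.25 and 26.63 FPKM), and MSGN1 was listed at 0 in WT. Of 6 mesenchyme markers, 4 were lower (sums 547.23 and 225.61 FPKM). Both neuroectoderm markers above the filter were lower (sums 104.13 and 69.66 FPKM), and ZIC1 was listed at 0 in WT. PECAM1, GSC and TWIST2, counted above as lower, passed the filter only in WT cells, so they had to be lower.

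Among the feedback genes, 6 of 7 had lower values in MEIS2-/- cells, beside 40.6% of all compared genes. Of the 7, 2 (DUSP6 and SPRY1) were lower by at least 2-fold, beside 7.97% of all compared genes. The 4 signalling receptors differed by less than 2-fold, and none of the 5 receptor genes reached this threshold. Among all compared genes, 15.8% reached it in either direction, so most genes did not. The secreted ligands differed in both directions, with FGF16 higher and FGF10 lower, and the intracellular FGF11 and FGF13 exchanged ranks. Among the 32 genes with values, 24 passed the filter of 1 FPKM. Of these 24, 6 (FGF3, FGF8, FGF13, FGF16, FGF18 and FGF22) were at least 2-fold higher in MEIS2-/- cells, where 7.84% of all compared genes were higher. A further 4 (FGF10, FGF11, SPRY1 and DUSP6) were at least 2-fold lower, where 7.97% of all compared genes were lower. FGF3, FGF8, FGF18 and FGF22 passed the filter only through their value in MEIS2-/- cells, so that they had to be higher there, and their number says nothing about the group. The other 20 genes were at 1 FPKM or more in both libraries. Of these 20, FGF13 and FGF16 were at least 2-fold higher and FGF10, FGF11, SPRY1 and DUSP6 were at least 2-fold lower, against 5.72% and 5.8% of the 12025 genes at this level in both libraries. The median log2 fold change of the 24 genes was -0.01, with 12 above 0 and 12 below, and its sign changed without the filter, where it was 0.23 over the 32 genes, while 59.3% of all compared genes were above 0. At the filter, FGF22 lay just inside with 1.06 FPKM in its higher library, and FGF5 lay just outside with 0.62 FPKM.

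**Figure D1:**
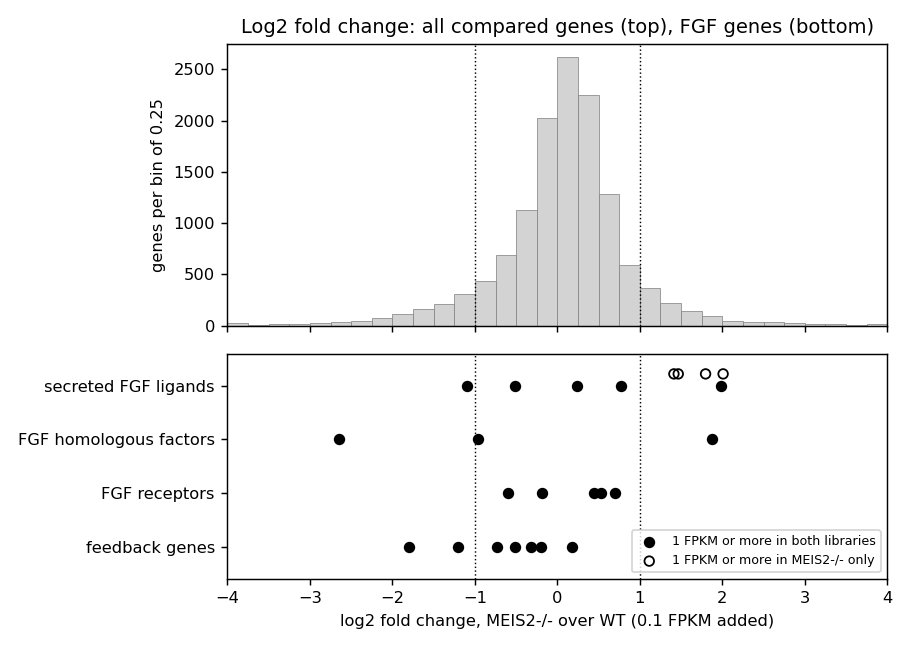
Log2 fold changes (MEIS2-/- over WT, 0.1 FPKM added) of the 13075 compared genes in bins of 0.25 with values beyond 4 in the outermost bins (top), and of the 24 FGF genes above the filter by class (bottom); dotted lines mark 2-fold differences. Open circles are the 4 ligands that reached 1 FPKM only in MEIS2-/- cells. Receptors lie between the lines, and 6 of the 7 feedback genes lie below 0.

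Promoter sequences are shown for 5 of the 10 genes that differed at least 2-fold, so that the letters upstream of these genes can be read beside their values. RefSeq windows (GRCh38.p14) ran from 250 bases before to 50 bases after a transcription start. Windows were used for 25 of the 34 genes (FGF6 included) and for 8 of these 10. There were 45 windows in all because some genes have several starts. Windows of FGFR1, FGF17, FGF20 and DUSP4 were not used, so the promoters of these genes were not searched. Each window was searched on both strands for TGACAG, the hexamer bound by MEIS proteins, for CCGGAA, a core of sites of ETS factors, and for ACGTG, the core of hypoxia response elements. Shown are DUSP6, which had the largest difference among feedback genes, and the first window with a match of each other gene that had one. Capitals mark the matches, and the DUSP6 window held none. The windows are chr12:89352452-89352751 for DUSP6, chr11:69819367-69819666 for FGF3 and chrX:138739304-138739603 for a downstream start of FGF13, all on the minus strand, and chr4:123398136-123398435 for a downstream start of SPRY1 and chr17:7438048-7438347 for FGF11, both on the plus strand.
DUSP6: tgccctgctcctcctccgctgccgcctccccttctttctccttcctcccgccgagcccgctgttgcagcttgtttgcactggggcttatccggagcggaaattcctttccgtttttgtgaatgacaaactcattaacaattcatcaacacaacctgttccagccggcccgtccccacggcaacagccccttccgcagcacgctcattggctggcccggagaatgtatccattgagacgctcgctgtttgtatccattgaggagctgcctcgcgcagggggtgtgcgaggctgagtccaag
SPRY1: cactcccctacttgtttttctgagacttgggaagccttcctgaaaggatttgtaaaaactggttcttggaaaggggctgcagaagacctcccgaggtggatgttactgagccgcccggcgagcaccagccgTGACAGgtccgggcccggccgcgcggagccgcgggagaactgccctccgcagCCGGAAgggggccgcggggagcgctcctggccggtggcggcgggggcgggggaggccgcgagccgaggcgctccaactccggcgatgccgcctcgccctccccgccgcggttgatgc
FGF11: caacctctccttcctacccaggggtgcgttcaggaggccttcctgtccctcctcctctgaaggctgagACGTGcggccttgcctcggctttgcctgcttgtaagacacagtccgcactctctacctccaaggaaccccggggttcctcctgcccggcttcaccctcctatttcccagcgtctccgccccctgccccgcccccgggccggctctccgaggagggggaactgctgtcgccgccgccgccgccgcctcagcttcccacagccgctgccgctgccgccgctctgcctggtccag
FGF3: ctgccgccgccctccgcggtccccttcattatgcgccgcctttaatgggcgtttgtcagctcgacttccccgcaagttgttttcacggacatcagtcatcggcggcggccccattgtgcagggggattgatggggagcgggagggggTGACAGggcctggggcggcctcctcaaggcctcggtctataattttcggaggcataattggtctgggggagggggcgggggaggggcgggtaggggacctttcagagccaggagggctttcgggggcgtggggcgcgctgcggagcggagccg
FGF13: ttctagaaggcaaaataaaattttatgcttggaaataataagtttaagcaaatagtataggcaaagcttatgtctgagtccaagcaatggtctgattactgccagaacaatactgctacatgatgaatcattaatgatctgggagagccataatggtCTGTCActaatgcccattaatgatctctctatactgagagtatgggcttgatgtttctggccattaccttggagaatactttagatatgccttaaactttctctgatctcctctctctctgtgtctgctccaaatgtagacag
The hexamer TGACAG began 119 bases upstream of this SPRY1 start and 103 bases upstream of the FGF3 start, and its reverse complement CTGTCA began 93 bases upstream of this FGF13 start. In SPRY1 the ETS core began 67 bases upstream of the start, and in FGF11 the letters ACGTG began 182 bases upstream. Over the 45 windows of FGF genes, the MEIS hexamer was present in 7 (15.6%), against 15.8% of all 35116 windows. The ETS core was present in 2 (4.44%), against 17.2% of all windows, and ACGTG was present in 11 (24.4%), against 21.4%. The 45 windows are not independent, because windows of the same gene can overlap. They leave out the genes without a window, and the shares of all windows were not matched to this choice of genes. No match overlapped another in the windows shown. The windows of FGF10, FGF18 and FGF22 held none of the 3 motifs.

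The secreted ligands were compared first, to see which FGF mRNAs the cells made besides the bFGF in the medium. Summed over the 16 secreted ligands with values, the level was 54.56 FPKM in WT and 87.28 FPKM in MEIS2-/-. FGF19, an endocrine FGF, was the highest ligand in both. It was at 25.55 FPKM in WT and 43.71 FPKM in MEIS2-/-, a log2 fold change of 0.77, and made up 46.8% and 50.1% of the ligand sum. FGF19 was thus higher in MEIS2-/- cells by less than 2-fold. FGF16, a paracrine ligand known from heart development, was at 5.41 FPKM in WT and 21.66 FPKM in MEIS2-/-, a log2 fold change of 1.98. It ranked 4 among the ligands in WT cells and 2 in MEIS2-/- cells, where its share of the sum was 24.8% as against 9.92% in WT. Among the 13075 genes, 202 had a larger log2 fold change than FGF16. Without FGF19 and FGF16, the remaining ligands summed to 23.60 FPKM in WT and 21.91 FPKM in MEIS2-/-, so these 2 genes accounted for the higher sum.

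FGF10 and FGF17 went the other way. FGF10, a ligand of mesoderm and mesenchyme that acts on neighbouring epithelia, ranked 2 among the ligands in WT cells at 9.54 FPKM and 4 in MEIS2-/- cells at 4.40 FPKM, a log2 fold change of -1.10. Its share of the ligand sum was 17.5% in WT and 5.04% in MEIS2-/-. FGF17, a relative of FGF8 that is made in the primitive streak, was at 8.90 FPKM and 6.23 FPKM, a log2 fold change of -0.51, which is less than 2-fold. Among the secreted ligands above the filter, FGF10 was the only one at least 2-fold lower.

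FGF8 itself, a ligand needed for cells to leave the primitive streak, was at 0.91 FPKM in WT and 2.59 FPKM in MEIS2-/-, a log2 fold change of 1.41. The third gene of this subfamily, FGF18, which is best known from bone and cartilage, was at 0.27 FPKM and 1.39 FPKM, a log2 fold change of 2.01. The subfamily as a whole summed to nearly the same level, 10.08 FPKM in WT and 10.21 FPKM in MEIS2-/-, because the lower FGF17 offset the higher FGF8 and FGF18. FGF3, a ligand of the inner ear and tail, was at 0.51 FPKM and 2.02 FPKM, a log2 fold change of 1.80. FGF22, known from the organisation of synapses, was at 0.32 FPKM and 1.06 FPKM, a log2 fold change of 1.47. All 4 genes were low, and depth is unknown, so the number of reads behind these values cannot be given.

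FGF2, whose protein was supplied in the medium, was at 2.17 FPKM in WT and 2.57 FPKM in MEIS2-/-, a log2 fold change of 0.23. Its exons overlap those of NUDT6 on the opposite strand in the GENCODE 29 annotation, and the sources used here do not say that reads were assigned by strand, so part of either value may come from the other gene. The remaining 7 ligands with values were under 1 FPKM in both libraries. FGF4, a ligand of pluripotent cells, was the one with the widest gap, at 0.10 FPKM in WT and 0.33 FPKM in MEIS2-/-. FGF5, a ligand of the postimplantation epiblast, was at 0.47 and 0.62 FPKM. FGF1, FGF7 and FGF9 lay between 0.08 and 0.19, 0.15 and 0.30, and 0.15 and 0.17 FPKM, with the lower value in WT for each. The endocrine ligands FGF21, at 0.01 FPKM in WT and listed at 0 in MEIS2-/-, and FGF23, at 0.02 and 0.04 FPKM, were close to the smallest value the tables can hold.

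The FGF homologous factors FGF11 to FGF14 share the FGF fold but stay inside the cell, where they bind voltage-gated sodium channels, and are not regarded as ligands of the receptors. FGF11 was at 19.70 FPKM in WT and 3.06 FPKM in MEIS2-/-, a log2 fold change of -2.65. This was the largest difference of all 32 FGF genes, and 100 of the 13075 genes had a lower log2 fold change. FGF13, which also binds microtubules, was at 7.53 FPKM in WT and 27.96 FPKM in MEIS2-/-, a log2 fold change of 1.88. FGF11 therefore made up 66.6% of the sum of the 4 factors in WT cells and FGF13 made up 86.6% in MEIS2-/- cells, while the sum itself was 29.56 FPKM and 32.28 FPKM. FGF12 was at 2.20 FPKM and 1.08 FPKM, a log2 fold change of -0.96, just short of 2-fold. FGF14 was at 0.13 and 0.18 FPKM, and its exons overlap those of ITGBL1 on the opposite strand. The promoter windows of FGF11 and FGF13 are among those printed above. FGF10, FGF11, FGF13, FGF14, DUSP6 and FGFR1 each overlap an annotated antisense RNA, whose reads cannot be separated from theirs without strand. FGF11 also overlaps the processed transcripts AC113189.2 and AC113189.4 on its own strand, whose reads strand alone would not separate.

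The receptors were compared next, since they set which ligands a cell can answer. All 4 signalling receptors were well expressed. FGFR1, the main receptor of mesoderm, was at 193.31 FPKM in WT and 169.66 FPKM in MEIS2-/-, a log2 fold change of -0.19, and ranked 327 and 377 among the 17397 genes. FGFR4, which binds FGF19 with the co-receptor KLB, was at 68.34 and 93.01 FPKM, a log2 fold change of 0.44. FGFR3, known for restraining bone growth, was at 55.33 and 89.96 FPKM, a log2 fold change of 0.70, the largest of the receptors. FGFR2, whose splice forms separate epithelial from mesenchymal cells, was at 27.01 and 39.06 FPKM, a log2 fold change of 0.53. The order of these 4 was the same in both libraries, with FGFR1 first, then FGFR4, FGFR3 and FGFR2.

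The makeup of the receptor pool differed more than its size. FGFR1 to FGFR4 summed to 343.99 FPKM in WT and 391.69 FPKM in MEIS2-/-. FGFR1 made up 56.2% of this sum in WT and 43.3% in MEIS2-/-, and FGFR3 made up 16.1% and 23.0%. FGFRL1, which binds FGFs but lacks the kinase domain, was at 41.49 FPKM in WT and 27.41 FPKM in MEIS2-/-, a log2 fold change of -0.60. Each gene has 1 value for all its transcripts together, so the epithelial and mesenchymal splice forms of FGFR1, FGFR2 and FGFR3 could not be compared.

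The feedback genes were then examined. These genes answer to any receptor that feeds the RAS-ERK cascade, not to FGF alone, and signalling itself was not measured. Their sum was 250.70 FPKM in WT and 125.32 FPKM in MEIS2-/-, so that MEIS2-/- cells held 50.0% of the WT level. Of the 7 genes, 6 were lower in MEIS2-/- cells, whereas 40.6% of all compared genes were lower by any amount. At least 2-fold lower were 2 of the 7, against 7.97% of all compared genes. DUSP6, the phosphatase that removes phosphates from ERK in the cytoplasm, was at 116.80 FPKM in WT and 33.39 FPKM in MEIS2-/-, a log2 fold change of -1.80. It kept 28.6% of its WT level and ranked 600 in WT and 2493 in MEIS2-/- among the 17397 genes. SPRY1, a Sprouty protein that blocks RAS activation downstream of the receptor, was at 28.85 FPKM and 12.47 FPKM, a log2 fold change of -1.20. DUSP6 accounted for most of the difference in the sum, and without it the other 6 genes summed to 133.90 and 91.93 FPKM.

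Within the same families the differences were uneven. SPRY2 was at 43.16 FPKM in WT and 30.22 FPKM in MEIS2-/- (log2 fold change -0.51), and SPRY4 was at 19.94 and 17.38 FPKM (-0.20), both less than 2-fold. DUSP4, a nuclear phosphatase of ERK, was at 19.10 and 11.42 FPKM, a log2 fold change of -0.74. SPRED2, a membrane-bound inhibitor of RAS signalling, was at 16.40 and 13.13 FPKM (-0.32). SPRED1, its close relative, was the 1 gene higher in MEIS2-/- cells, at 6.45 and 7.31 FPKM (0.18). The median log2 fold change of the 7 genes was -0.51, beside 0.12 for all compared genes. Set against the receptors, the feedback sum was 0.729 of the FGFR1 to FGFR4 sum in WT and 0.320 in MEIS2-/-. Whether this ratio follows FGF signalling per receptor was not tested.

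**Figure D2:**
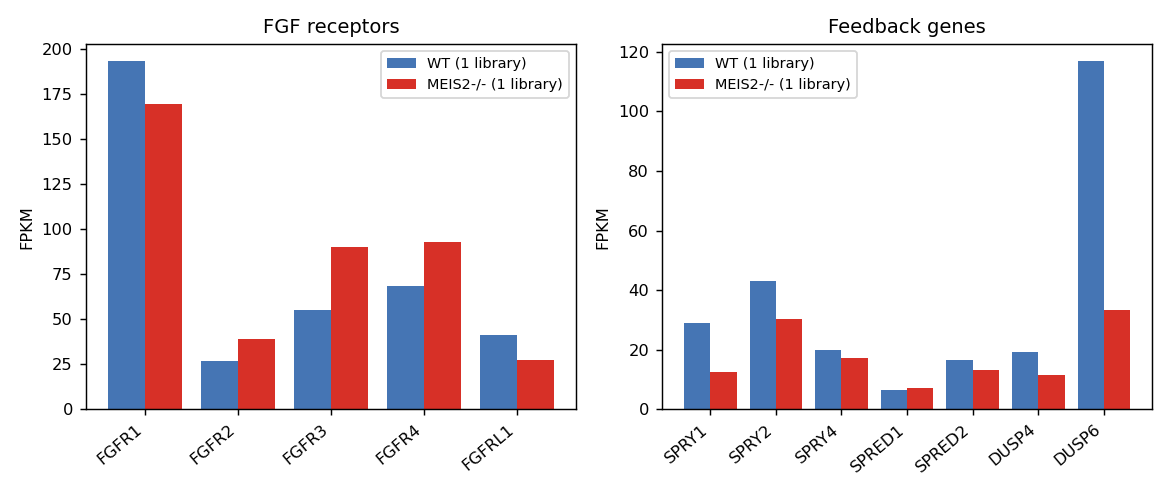
FPKM of the 5 FGF receptor genes (left) and the 7 feedback genes (right), with 1 bar per library and no error bars because each genotype had 1 library. FGFR1 is the tallest receptor in both, and DUSP6 differs most among the feedback genes, at 116.80 FPKM in WT and 33.39 FPKM in MEIS2-/-.

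Further genes of the pathway were grouped into 7 lists by function. The adaptors and RAS-ERK cascade genes were close to level in their median. All 21 passed the filter, with a median log2 fold change of 0.10, and 20 differed by less than 2-fold. Among all compared genes, 15.8% differed by at least 2-fold. The exception was FRS3, a docking protein of the receptors, at 8.29 FPKM in WT and 3.18 FPKM in MEIS2-/- (-1.35), while its relative FRS2, named after its value was seen, was at 3.05 and 3.41 FPKM (0.16). The highest gene of the list was MAP2K2, which encodes the kinase MEK2, at 181.71 and 178.78 FPKM. Differences under 2-fold were not all small. MAP2K1, which encodes the kinase MEK1, was at 44.98 and 25.49 FPKM (-0.82), and SHC1 was at 133.88 and 81.78 FPKM (-0.71). SOS2 was higher, at 1.95 and 3.22 FPKM (0.70). MAP2K1, SHC1 and SOS2 are named after their values were seen. Of the 21 genes, 14 were higher and 7 were lower by any amount.

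A list of other ERK feedback genes was examined in the same way. It includes DUSP8 and DUSP10, phosphatases of stress-activated kinases, so its counts are not of ERK feedback alone. Of 12, 9 were lower, where 40.6% of all compared genes were lower, with a median log2 fold change of -0.48, and 4 were at least 2-fold lower, against 7.97% of all compared genes. DUSP5, a nuclear ERK phosphatase and the highest of the list, was at 57.61 FPKM in WT and 20.98 FPKM in MEIS2-/- (-1.45). DUSP8 was at 7.97 and 3.75 FPKM (-1.07). SPRY3 and DUSP10, below 5 FPKM and named to complete the count, were also at least 2-fold lower. Their log2 fold changes were -2.62 and -1.59, at WT levels of 4.38 and 2.89 FPKM. Both passed the filter only in WT cells, so they had to be lower. DUSP9, an ERK phosphatase of pluripotent cells, was the 1 gene at least 2-fold higher, at 3.97 and 11.15 FPKM (1.47). 

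Transcriptional targets of FGF and ERK signalling differed in both directions, with more of them lower. Of 19, 17 passed the filter, with a median of -0.44. Of these 17, 12 were lower and 5 were higher by any amount, beside 40.6% and 59.3% of all compared genes. At least 2-fold lower were 6, and 1 was at least 2-fold higher, against 7.97% and 7.84% of all compared genes. The immediate early gene FOS was at 5.78 FPKM in WT and 0.94 FPKM in MEIS2-/- (-2.50). FOS passed the filter only in WT cells, so it had to be lower. MYC was at 54.12 and 20.22 FPKM (-1.42), and PHLDA1 was at 35.01 and 13.50 FPKM (-1.37). EPHA2 (-1.33), TBX6 (-1.36) and MSX1 (-1.16), the highest gene of the list at 187.93 FPKM in WT, were the other three, named to complete the count. CDX2, a homeobox gene of posterior mesoderm and trophectoderm, was at 4.83 and 21.24 FPKM (2.11). The ETS factors ETV4 and ETV5, often used as readouts of FGF signalling, were higher in MEIS2-/- cells by less than 2-fold, at 50.04 and 81.12 FPKM (0.70) and at 11.78 and 17.79 FPKM (0.59). They are named after their values were seen, because they went opposite to DUSP6 and SPRY1. These targets also answer to other signals, and some are markers of cell types listed above.

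Proteins that help ligands reach their receptors were mixed. Among the co-receptors and FGF binding proteins, 7 of 11 passed the filter, with a median of 0.09. NCAM1, a cell adhesion molecule that can bind FGFR1, was at 11.22 FPKM in WT and 3.14 FPKM in MEIS2-/- (-1.80), and ANOS1, a secreted modulator of FGFR1, was at 2.89 and 7.11 FPKM (1.27). KLB, the co-receptor of FGF19, was at 0.44 and 1.96 FPKM (1.93), passed the filter only in MEIS2-/- cells and is named after its value was seen. The other co-receptor, KL, likewise named after its value was seen, was at 0.03 and 0.04 FPKM. The highest gene of the list, CDH2, was at 52.48 and 55.96 FPKM.

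Of 11 heparan sulfate proteoglycan core proteins above the filter, 9 were lower, where 40.6% of all compared genes were lower, with a median of -0.49. In each direction 1 gene was at least 2-fold different, against 7.84% (higher) and 7.97% (lower) of all compared genes. GPC2 was at 43.73 FPKM in WT and 15.10 FPKM in MEIS2-/- (-1.53), and SDC2 was at 29.42 and 65.98 FPKM (1.16). The highest core protein gene, AGRN, was at 152.13 and 128.05 FPKM. Of 12 synthesis enzymes and sulfatases above the filter, 8 were higher, a share near the 59.3% of all compared genes, with a median of 0.41. Of the 12, 2 were at least 2-fold higher, against 7.84% of all compared genes. NDST1, which starts the sulfation of the chain, was at 10.34 and 25.35 FPKM (1.29), and the 6-O-sulfotransferase HS6ST2 was at 3.53 and 8.97 FPKM (1.32). Its relative HS6ST1, the highest of the list, was at 37.42 and 74.90 FPKM, just under the 2-fold threshold with a log2 fold change of 0.999.

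Among 6 regulators of FGFR splicing, 5 were higher, where 59.3% of all compared genes were higher. The median of the 6 was 0.60, and 2 of them were at least 2-fold higher. MBNL1, named because it enters the count of 5 and the median, passed the filter only in MEIS2-/- cells, so it had to be higher. ESRP1 and ESRP2, which favour the epithelial forms of FGFR1 to FGFR3, were at 10.73 and 28.86 FPKM (1.42) and at 6.25 and 20.59 FPKM (1.70). PTBP1, a general splicing repressor, was the highest at 239.21 and 268.52 FPKM. In the same library the summed visceral endoderm markers were higher, at 1025.03 FPKM beside 460.20 FPKM in WT, and their part in these values was not tested.

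**Figure D3:**
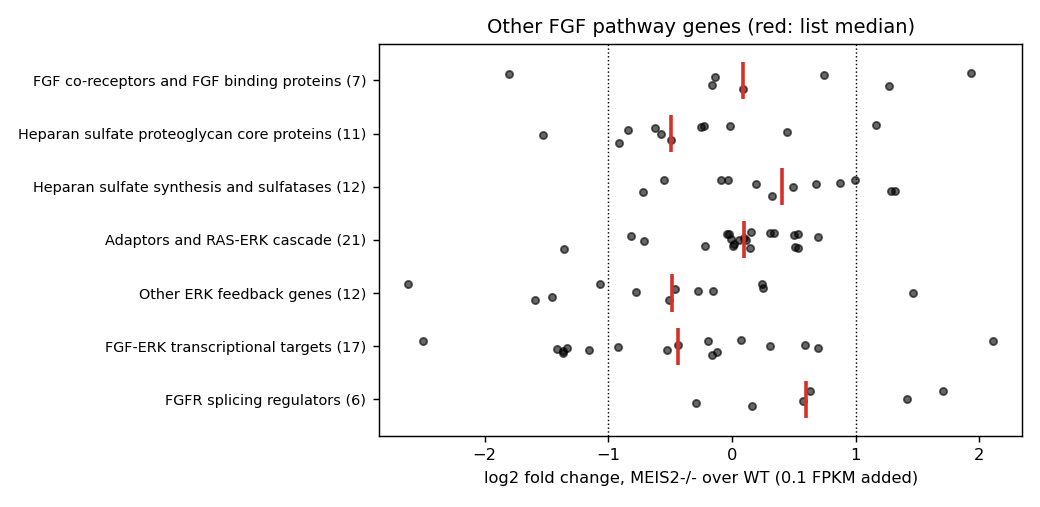
Log2 fold changes (MEIS2-/- over WT, 0.1 FPKM added) of the other FGF pathway genes above the filter, 1 point per gene, with the number of genes in brackets, list medians as red bars and dotted lines at 2-fold. The RAS-ERK cascade is centred at 0.10, and the other ERK feedback genes at -0.48.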

How the data were processed

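RNA-Seq of 1 WT and 1 MEIS2-/- library of H1-derived cells was analysed from the FPKM values that the authors deposited with 2 decimals. The submitters' processing notes name BWA, Bowtie, RSEM and the hg19 build, and their versions are not given in the sources used here. Each gene was listed by NCBI Gene number with its RefSeq transcripts, and 17365 of 17397 numbers were matched to a current symbol (RefSeq, GRCh38.p14). This build was used for names, promoter windows and the order of neighbouring genes. Low values of 982 and 1056 single-transcript genes were compared with multiples of 1 read, using transcript lengths from GENCODE 29. The best agreement, where 1 is complete, was 0.18 and 0.17, so depth is unknown and no counting interval is given.

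The libraries were compared by log2((MEIS2-/- + 0.1)/(WT + 0.1)) over genes that reached 1 FPKM in either library. With 1 library per group no test was run. All 32 FGF genes with values are described. In the pathway lists, genes named reached 5 FPKM in at least 1 library and differed at least 2-fold, up to 3 per direction, together with the highest gene; additions are stated. The members and lists were chosen with earlier results of these data known. Alternatives were pseudocounts of 1 and 0.01 FPKM, no filter and a filter of 5 FPKM, thresholds of 1.5-fold and 4-fold, a median log2 ratio of 0 over the 8092 genes that reached 5 FPKM in each library, and TMM scaling (trimmed means of log ratios, trimming 30% of log ratios and 5% of mean values per side). The computation was tested on simulated data. Python 3.11.15, numpy 2.4.6, pandas 2.3.3 and matplotlib 3.10.9 were used.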

Additional observations from a re-analysis of the deposited data

How the results depend on the processing

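Of the 8 alternative settings, only the 2 scalings could change the sign of a gene's log2 fold change, since a pseudocount cannot. The 32 FGF genes with values kept their sign under both scalings (shifts of 0.12 for the median and 0.10 for TMM). FGF3, FGF11, FGF13, FGF16, SPRY1 and DUSP6 stayed at least 2-fold different under both scalings and both other pseudocounts. FGF10 ran from -1.21 to -0.96, FGF18 from 0.91 to 2.32 and FGF22 from 0.64 to 1.70, and FGF8 was as low as 0.91, each under 2-fold with a pseudocount of 1 FPKM. FGF12 passed 2-fold under the 2 scalings and a pseudocount of 0.01 FPKM, and ran from -1.07 to -0.62. The number of FGF genes at least 2-fold higher was 3 with a pseudocount of 1 FPKM, 2 with a filter of 5 FPKM and 1 at 4-fold. The number lower was 7 at 1.5-fold and 1 at 4-fold. Over all genes, 623 were higher and 693 lower with a pseudocount of 1 FPKM, 554 and 598 with a filter of 5 FPKM, 2353 and 1890 at 1.5-fold and 194 and 241 at 4-fold, and without a filter 1567 were higher. The median of the 24 FGF genes, -0.01, was 0.23 without a filter and -0.26 with a filter of 5 FPKM. The median of the 9 secreted ligands above the filter, 1.41 with 4 of them above it only in MEIS2-/- cells, was 0.75 with a pseudocount of 1 FPKM, 0.68 without a filter and 0.13 with a filter of 5 FPKM, and that of the FGF homologous factors, -0.96, was -0.34 without a filter. These follow from which low genes are kept and from how far the pseudocount shrinks them. Unknown depth limits what can be said of the low ligands. No paired analysis was possible because each genotype had 1 library.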

Other observations

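Other receptor tyrosine kinases that feed the RAS-ERK cascade were listed after the values of the FGF genes had been seen. Of 24, 20 passed the filter, 3 were at least 2-fold higher in MEIS2-/- cells and 5 lower by as much, against 7.84% and 7.97% of all compared genes, with a median log2 fold change of -0.23. Their sum was 629.28 FPKM in WT and 318.72 FPKM in MEIS2-/-, a gap made mostly by KDR, the main VEGF receptor, at 323.77 and 61.98 FPKM (-2.38). The endothelial receptors TIE1 (-1.69), FLT4 (-1.67) and FLT1 (-1.08) and the mesenchymal receptor PDGFRB (-1.14) were the other lower genes. The epithelial receptors ERBB3, at 4.39 and 18.07 FPKM (2.02), and EGFR, at 0.70 and 3.33 FPKM (2.10), and the stem cell factor receptor KIT, at 3.33 and 10.02 FPKM (1.56), were higher. EGFR passed the filter only in MEIS2-/- cells. The FGF receptors differed by less than 2-fold, as did 12 of these 20 genes. KDR, whose ligand VEGF was in the medium together with bFGF, had the lowest log2 fold change of the list. It is also among the lateral plate mesoderm markers above.

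Several FGF genes are neighbours in the RefSeq gene order. FGF19, FGF4 and FGF3 follow each other on chromosome 11 with no protein-coding gene between them. All were higher in MEIS2-/- cells, as were 59.3% of all compared genes. The log2 fold changes were 0.77 for FGF19 and 1.80 for FGF3. FGF3 passed the filter only in MEIS2-/- cells, so it had to be higher, and FGF4 was under 1 FPKM in both libraries. FGF2 and SPRY1 lie on chromosome 4 with 2 protein-coding genes between them, at 0.23 and -1.20. SPRY4 and FGF1 are adjacent on chromosome 5, at -0.20 and 0.69, with FGF1 under 1 FPKM in both.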
